A study of Homo sapiens with 3 samples.

Results

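The absorptive cells of the intestine take up sugars, short peptides and amino acids through carrier proteins of the solute carrier (SLC) family, and 9 genes that encode such carriers were examined for binding of FOXA2 in Caco2 cells. Caco2 is an established human colorectal adenocarcinoma line that forms an enterocyte-like layer in culture. FOXA2 is a forkhead transcription factor of the liver, pancreas and gut that binds DNA wrapped in nucleosomes. The genes were chosen by name, with earlier results of these data known. Each was given a window of hg19 made of the gene and 50 kb on either side. The windows span 125 kb to 198 kb each and 1366 kb in all. A peak belongs to a window when its midpoint lies there. This rule took 69 of the 63949 peaks of replicate 1 and 30 of the 26907 peaks of replicate 2.

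Chromatin immunoprecipitation followed by sequencing (ChIP-seq) was carried out with a FOXA2 antibody on Caco2 cells grown in low-glucose medium with serum. The 2 FOXA2 libraries are replicates of this 1 condition, and each peak list was called against the same labelled input, a library made without antibody whose own values were not analysed here. No treatment, genotype or time is compared, and whether the replicates are separate cultures is not given, so their differences may be technical. Peak lists hold no expression, so neither transporter levels nor the identity of the cells could be checked with marker genes. Replicate 1 holds 26183147 tags (aligned reads) and replicate 2 holds 15756702, with 8.72% and 5.16% of them in peaks.

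Dietary sugars cross the enterocyte in steps. SLC5A1 (SGLT1) draws glucose and galactose from the lumen with sodium, SLC2A5 (GLUT5) lets fructose in, and SLC2A2 (GLUT2) passes sugars on to the blood. SLC2A1 (GLUT1) is the widely expressed glucose carrier of basal uptake and is abundant in many cultured and tumour cells. SLC15A1 (PEPT1) takes up short peptides with protons. SLC6A19 carries neutral amino acids with sodium, SLC7A9 and SLC3A1 are the light and heavy subunits of the exchanger for cystine and basic amino acids, and SLC1A1 (EAAT3) takes up glutamate and aspartate.

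All 9 windows held at least 1 FOXA2 site found in both replicates, but the sites were spread unevenly over the genes. Peaks of the 2 lists with at least 1 bp in common were counted as a shared site, and there were 29. SLC2A2 had 8 and SLC15A1 had 6, so the glucose carrier and the peptide carrier together held 14, or 48.3%. SLC3A1 had 4, SLC2A1 and SLC6A19 had 3 each, SLC2A5 had 2, and SLC5A1, SLC7A9 and SLC1A1 had 1 each. The same 2 genes carried 61.0% of the summed score of all window peaks in replicate 1 and 67.2% in replicate 2. Scores are values the authors gave to each peak, its tag count scaled to 10000000 tags per library, and are given below in normalised tags.

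**Figure D1:**
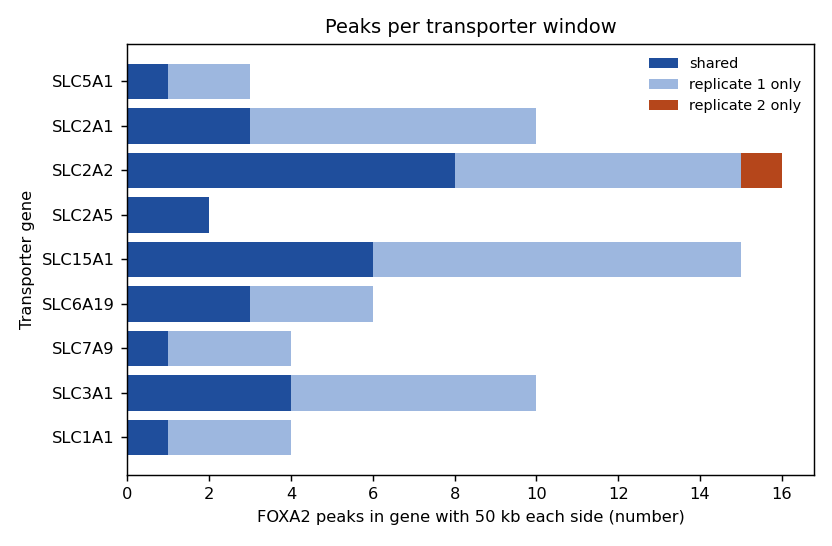
Number of FOXA2 peaks (horizontal axis) in the window of each transporter gene (vertical axis), divided into sites shared by the replicates and peaks of 1 replicate only. SLC2A2 and SLC15A1 hold 8 and 6 shared sites, and the replicate 2-only peak lies in the SLC2A2 window.

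Windows of the genome gave the background for these counts. Of 20132 adjacent windows of 146 kb, the median length of the 9, 50% held at least 1 shared site, and of those with a peak of either replicate 68.0% did. The density was 2.12 shared sites per 100 kb in the transporter windows and 0.828 over the span of peaks in the genome windows. Without SLC2A2 and SLC15A1 it was 1.41. Genome windows are not matched for gene content, and a window built around a gene is not a random stretch. The genes were also chosen with earlier results of these data known, so these shares are a description and not a test. Among genome windows of the same length as its own, 0.824% held at least as many shared sites as SLC2A2 and 4.86% at least as many as SLC15A1. The share was 10.4% for SLC3A1, 14.2% for SLC6A19, 15.6% for SLC2A1 and 29.9% for SLC2A5. For SLC7A9, SLC5A1 and SLC1A1 it was 49.2%, 54.0% and 57.8%, so it was common for a window of this length to hold at least 1 shared site. Exactly 1 was held by 21.0% of the 146 kb windows.

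**Figure D2:**
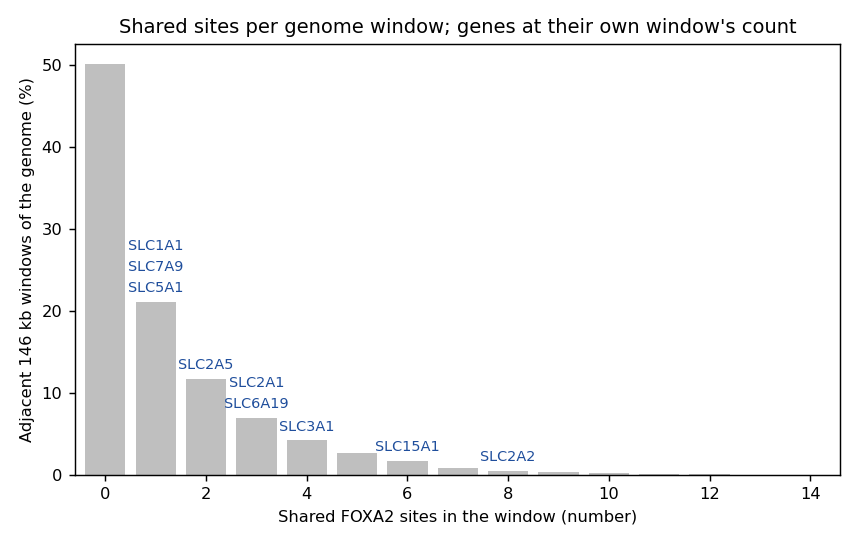
Share of adjacent 146 kb genome windows (vertical axis, percent) by the number of shared FOXA2 sites they hold (horizontal axis). Gene names stand above the bar for the count in their own window, which is 125 kb to 198 kb long, with SLC2A2 at 8 and SLC15A1 at 6.

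Nearly all replicate 2 peaks in these windows had a replicate 1 partner, while 40 of 69 replicate 1 peaks had none in replicate 2. In the windows, 29 of 30 replicate 2 peaks were shared, or 96.7% (95% Wilson bounds 83.3% and 99.4%), against 90.5% over the whole list. For replicate 1 the count was 29 of 69, or 42.0% (31.1% and 53.8%), against 38.1% over the whole list. Both shares had the genome-wide value within their interval, which covers counting error only. The 40 peaks of replicate 1 alone had a median score of 7 and ranged from 4 to 23, while shared sites had a median of 24 in that replicate. Most of the 40 were weak, but 2, both at SLC2A2, reached the median of all shared sites in replicate 1, which was 16. The false discovery rate threshold was 11 tags in replicate 1 and 10 in replicate 2. A score unit is 2.62 and 1.58 tags, so this threshold lay at a lower score in replicate 1. A shared site had to pass the threshold in both lists, so its higher score is partly set by that definition. Between replicates the centre of a shared site moved by 14 bp at the median and 101 bp at most.

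Transporter sites were also spread over a wide range of strength. The mean of the replicates' scores had a median of 20.5 over the 29 sites (quartiles 13.5 and 36.5), against 14.5 over all 24345 shared sites (9.5 and 24.5). It ran from 7.5 at SLC1A1 to 87 at SLC2A2. The higher median was not shared by all genes. By gene, the median was 43.75 at SLC2A5, 33.25 at SLC15A1, 30 at SLC2A2, 20.5 at SLC5A1 and 19 at SLC2A1. It was 13.5 at SLC6A19 and SLC3A1, 9 at SLC7A9 and 7.5 at SLC1A1, all below the 14.5 of all shared sites. Of the 29 sites 5 had a mean of at least 50, which is 17.2%, against 8.09% of all shared sites. These 5 lay at SLC2A2 (3 sites), SLC15A1 and SLC2A5, so outside the windows of SLC2A2 and SLC15A1 only SLC2A5 had such a site.

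Shared sites lay before, inside and beyond the genes, and which gene any of them acts on was not tested. None of the 29 lay within 1 kb of a transporter's start, a span that makes up only 1.32% of the windows, and 1 lay within 2 kb. The 3 sites within 5 kb of a start came to 3.33 per 100 kb, against 2.12 over the whole windows, so these counts show neither a lack of sites near the starts nor an excess. The start is known here only to the nearest kb, and for SLC3A1 it was taken as the lower-coordinate end, because the tables used did not give its strand. Of the shared sites, 14 lay inside a gene and 15 in the flanks. The genes make up 34.1% of the windows, so the density was 3.0 shared sites per 100 kb inside them and 1.67 in the flanks. Most of the sites inside genes belonged to SLC2A2 with 5 and SLC15A1 with 4, and the difference rested on these 2. The other 7 genes held 5 sites inside them and 10 in their flanks, or 1.37 and 1.43 per 100 kb. SLC2A5, SLC6A19 and SLC7A9 had none inside the gene.

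**Figure D3:**
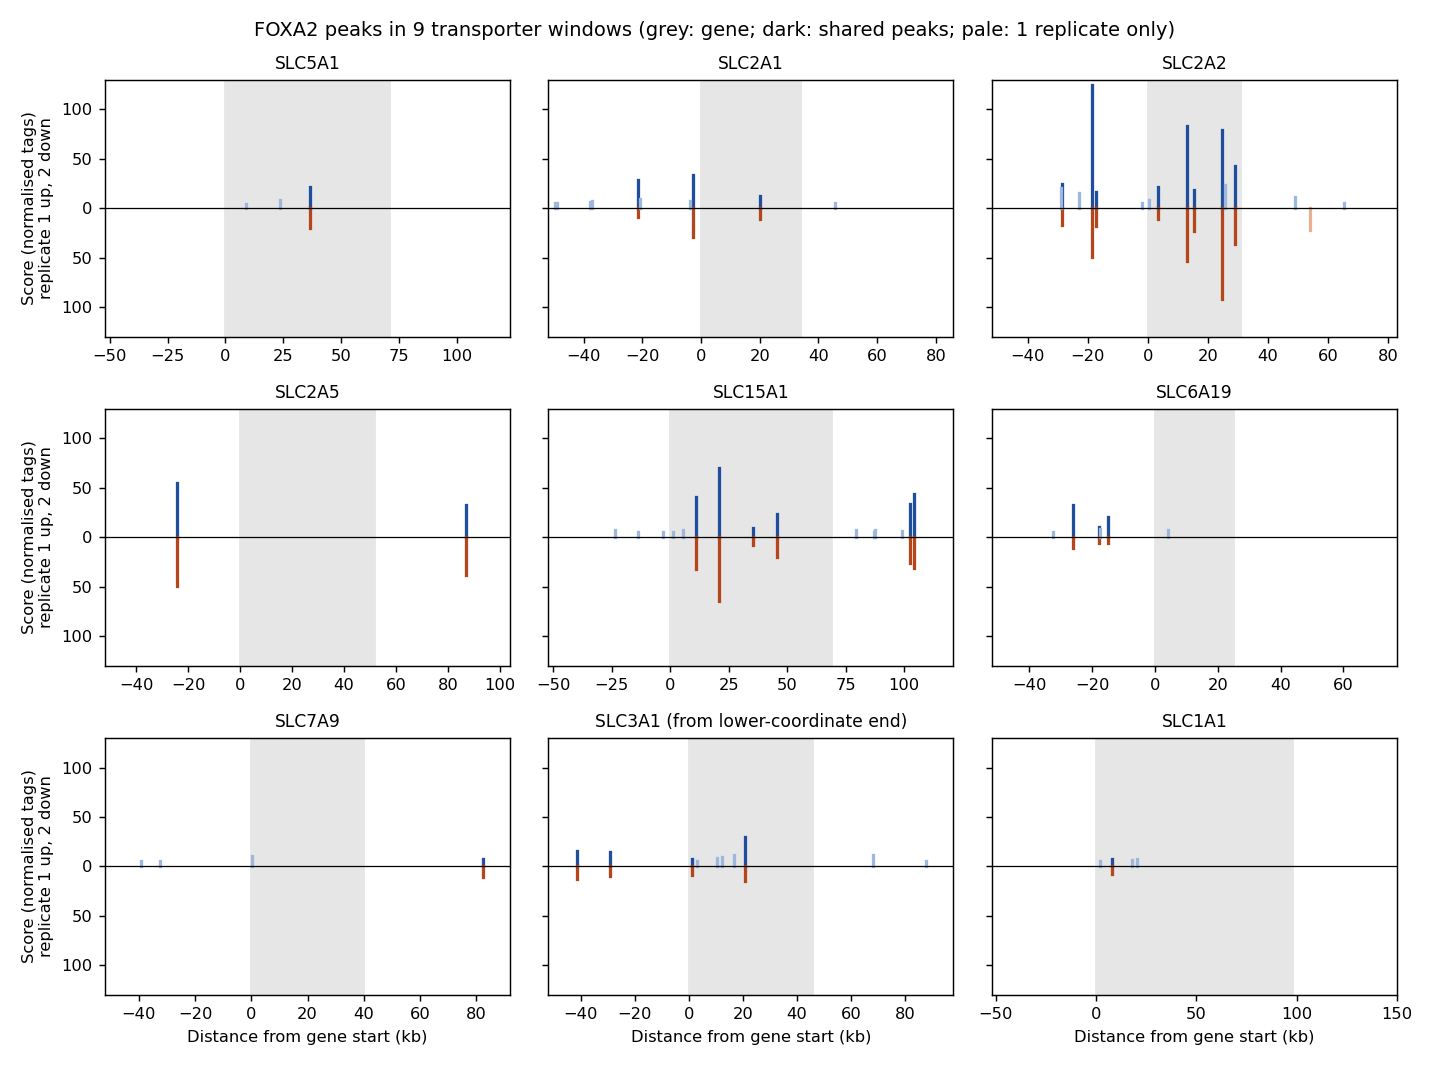
Score of each FOXA2 peak (vertical axis, normalised tags, replicate 1 upward and replicate 2 downward) against its distance from the gene's start in kb (horizontal axis) in the 9 transporter windows. Grey marks the gene; SLC2A2 has 5 shared sites inside it and 3 before its start, and SLC6A19 has 3 shared sites before its start and none inside.

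A peak of either replicate lay within 1 kb of the start in 2 genes, SLC2A2 and SLC7A9, in replicate 1 alone both times. At SLC2A2 it lay at chr3:170744494-170744616 with a score of 8, and at SLC7A9 at chr19:33360641-33360763 with a score of 10. The median replicate 1 peak scored 8. The 250 bases before the start of these 2 genes are shown because they are the promoters beside which a peak was found. They are from RefSeq on GRCh38.p14, read in the direction of the gene, at chr3:171026721-171026970 on the minus strand and chr19:32869768-32870017 on the minus strand. The peaks are on hg19 and were not converted, so whether a peak covers these bases was not determined. Capitals mark a forkhead core with a last base of T on the reverse strand (ATAAACA) in SLC2A2 and a GATA motif on the reverse strand (TTATCT) in SLC7A9.
SLC2A2: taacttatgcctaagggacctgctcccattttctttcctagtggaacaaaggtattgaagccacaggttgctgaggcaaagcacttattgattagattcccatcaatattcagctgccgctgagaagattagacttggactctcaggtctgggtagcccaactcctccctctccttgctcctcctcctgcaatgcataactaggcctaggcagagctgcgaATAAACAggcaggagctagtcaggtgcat
SLC7A9: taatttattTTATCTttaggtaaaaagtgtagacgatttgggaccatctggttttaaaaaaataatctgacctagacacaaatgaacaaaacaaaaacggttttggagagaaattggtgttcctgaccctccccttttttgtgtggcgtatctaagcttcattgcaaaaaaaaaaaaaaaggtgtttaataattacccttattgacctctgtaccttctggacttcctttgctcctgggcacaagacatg

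Promoters of 8 of the 9 genes were matched, all but SLC3A1, and searched for exact letters on both strands over the 250 bases before the start. The forkhead core was taken as TGTTTAC or TGTTTGC or TATTTAC or TATTTGC, and none of the 8 promoters held it, against 10.6% of 35116 RefSeq promoters. With a last base of T also allowed, SLC2A2 held it 29 bases before the start, and 22% of all promoters did. A GATA motif (AGATAA or TGATAA) was present in SLC6A19 and SLC7A9, and in 14.6% of all promoters. The HNF1 motif GTTAAT was present on the reverse strand in SLC5A1, 45 bases before the start, and in SLC6A19, 122 bases before it, and in 6.23% of all promoters. The CDX motif TTTATNG was found in SLC2A1, SLC2A5 and SLC6A19, each time as CTATAAA, at 32, 30 and 31 bases before the start. These letters also hold those of a TATA box. It was present in 8.93% of all promoters. The AP-1 motif TGANTCA was found in SLC15A1 and in 6.57% of promoters, and neither the HNF4 motif (CAAAGTCCA or CAAAGGTCA; 0.664%) nor the TCF motif CTTTGAT (2.26%) was found in any of the 8. A match is a stretch of letters and not a bound site.

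SLC2A2 carries glucose and fructose across the basolateral membrane and is also the glucose carrier of liver and pancreatic beta cells. It had the densest shared sites of the 9 genes and the highest peak score in each replicate. Its median over shared sites, 30, was below that of SLC2A5 and SLC15A1. Its strongest site lay 18.4 kb before the start, at chr3:170763379-170763501, and scored 125 in replicate 1 and 49 in replicate 2 (87 ± 53.7, mean ± SD, n = 2). By mean score it ranked 559 among the 24345 shared sites. The site inside the gene at chr3:170720188-170720310, 24.8 kb past the start, scored 79 and 92 (85.5 ± 9.19, n = 2) and ranked 579. The means of these sites differed by less than their spread, and their order was opposite in the replicates. The other strong site inside the gene, at chr3:170731734-170731856, scored 83 and 53 (68 ± 21.2, n = 2).

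The other SLC2A2 sites scored lower. The site at chr3:170715779-170715901, 29.2 kb past the start and close to the gene's far end, scored 43 and 36. The site at chr3:170729494-170729616 scored 18 and 23, and the site nearest to the start, 3.42 kb inside the gene at chr3:170741515-170741637, scored 21 and 11. In the flank before the start, the sites at chr3:170762347-170762469 and chr3:170773534-170773656 scored 16 and 24 in replicate 1 and 18 and 17 in replicate 2. The former lay 1.03 kb from the strongest site. TNIK is the next gene on this side in the RefSeq order, and which gene the flanking sites, the strongest included, act on was not tested. The 5 sites inside the gene formed a run of 25.9 kb in which no neighbours were more than 10 kb apart, and 99 runs of 5 or more existed among all shared sites.

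SLC2A2 also held the strongest peaks that were found in 1 replicate only. In replicate 1, chr3:170719116-170719238 scored 23 and lay 1.07 kb from the shared site that ranked 579, and chr3:170773924-170774046 scored 20 and lay 0.39 kb from a shared site. In replicate 2, chr3:170690782-170690932 scored 22, lay 23.1 kb beyond the gene's far end and had no counterpart. It was the only replicate 2 peak of the 9 windows without one.

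The other sugar carriers had fewer sites. SLC2A5, the fructose carrier, had 2, neither inside the gene and both with close agreement between the replicates. The site 24.4 kb before its start, at chr1:9173290-9173412, scored 55 and 49 (52 ± 4.24, n = 2), and the site 34.9 kb beyond its far end, at chr1:9062017-9062139, scored 33 and 38 (35.5 ± 3.54, n = 2). No other peak of either replicate lay in this window. SLC2A5 lies between SLC2A7, another member of its family, and GPR157 in the RefSeq order of genes, and which gene these flanking sites act on was not tested.

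SLC5A1, the sodium-coupled carrier that brings glucose in from the lumen, had 1 shared site. It lay inside the gene 36.7 kb past the start, at chr22:32475602-32475724, and scored 21 and 20 (20.5 ± 0.707, n = 2). The nearest other shared site was 432.9 kb away. The 2 other peaks of the window were found in replicate 1 alone, with scores of 4 and 8.

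SLC2A1, the carrier of basal glucose uptake, had its strongest site 2.61 kb before the start, the closest upstream shared site among the 8 genes whose strand the tables gave. This site, at chr1:43427548-43427670, scored 34 and 29 (31.5 ± 3.54, n = 2). The site at chr1:43446361-43446483, 21.4 kb before the start, scored 29 in replicate 1 and 9 in replicate 2 (19 ± 14.1, n = 2) and had the widest gap between replicates of the 3. Inside the gene, chr1:43404916-43405038 scored 12 and 11. A further 7 peaks were found in replicate 1 alone, with scores from 5 to 9.

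SLC15A1, the proton-coupled peptide carrier, was the gene with the next most sites after SLC2A2, and all its shared sites lay inside the gene or beyond its far end. The strongest lay inside the gene 20.7 kb past the start, at chr13:99384258-99384380, and scored 70 and 65 (67.5 ± 3.54, n = 2), rank 1047 of all shared sites. Also inside the gene, chr13:99394012-99394134 scored 41 and 32 (36.5 ± 6.36, n = 2), chr13:99359120-99359242 scored 24 and 20, and chr13:99369473-99369595 scored 9 and 8. A pair of sites 1.81 kb apart lay 35.2 kb and 33.4 kb beyond the gene's far end. They were at chr13:99300705-99300827, with 44 and 31, and at chr13:99302517-99302639, with 34 and 26. STK24 is the next gene on that side in the RefSeq order, and which gene the pair acts on was not tested. The ratio of replicate 1 to replicate 2 at these 6 sites ran from 1.08 to 1.42. No shared site lay before the start of SLC15A1, where replicate 1 alone had 3 peaks of scores 5 to 7. In all, 9 peaks were found in replicate 1 alone, with scores no higher than 7.

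SLC6A19, the main carrier of neutral amino acids at the brush border, had its 3 shared sites before the start and none inside the gene. The site at chr5:1174663-1174785, 26.3 kb before the start, scored 33 in replicate 1 and 11 in replicate 2 (22 ± 15.6, n = 2). The site at chr5:1186041-1186163, 14.9 kb before it, scored 21 and 6 (13.5 ± 10.6, n = 2), and the site at chr5:1182952-1183074 scored 10 and 6. The 3 sites formed a run of 11.5 kb and were weaker in replicate 2 throughout. SLC6A19 lies between SLC12A7 and its relative SLC6A18, and the sites are on the SLC12A7 side.

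The subunits of the cystine and basic amino acid exchanger differed in the number of their sites. SLC3A1, the heavy subunit, had 4. Its strongest, inside the gene 20.9 kb from the lower-coordinate end at chr2:44522856-44522978, scored 30 and 15 (22.5 ± 10.6, n = 2). The site at chr2:44503273-44503395 lay 1.33 kb from that end, the only shared site within 2 kb of the end of a gene taken as its start, and it was weak, with 7 and 9 (8 ± 1.41, n = 2). In the flank below the gene, chr2:44460684-44460806 scored 16 and 13 and chr2:44472810-44472932 scored 15 and 10. PPM1B is the next gene on that side in the RefSeq order, and which gene these flanking sites act on was not tested. Inside SLC3A1, replicate 1 alone had 4 more peaks, with scores from 5 to 11.

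SLC7A9, the light subunit, had 1 shared site, which lay 42.5 kb beyond the gene's far end at chr19:33278442-33278564. It scored 7 in replicate 1 and 11 in replicate 2 (9 ± 2.83, n = 2), near the median of all peaks in each list, which was 8 and 11. No shared site lay inside SLC7A9 or before its start. Replicate 1 alone had 3 more peaks, the one beside the start and 2 in the flank with a score of 5 each. The 4 shared sites of SLC3A1 against 1 for SLC7A9 are counts in windows of 146 kb and 140 kb with no test of the difference. The SLC7A9 site lay on the side of TDRD12 in the RefSeq order, and which gene it acts on was not tested.

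SLC1A1, the carrier of glutamate and aspartate, had the longest window and the weakest binding. Its shared site, inside the gene 8.04 kb past the start at chr9:4497982-4498104, scored 7 and 8 (7.5 ± 0.707, n = 2) and ranked 21493 of all shared sites. The 3 peaks of replicate 1 alone were also inside the gene and scored 5, 6 and 7. Both scores of the shared site lay below the median of all peaks in their list.

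Scores of the replicates rose together over the 29 sites. Spearman's rho was 0.85, against 0.78 over all shared sites. Both values are correlations across sites of the same 2 libraries, and sites within a library do not count as replicates. For that reason neither correlation was tested. The ratio of replicate 1 to replicate 2 had a median of 1.20 at the transporter sites, as over all shared sites, and ran from 0.636 at SLC7A9 to 3.50 at SLC6A19. Replicate 1 was higher at 22 sites (75.9%) and replicate 2 at 7, while replicate 1 was higher at 63.7% of all shared sites. A ratio of at least 3 was found at 3 sites, against 1.59% of all shared sites, and these were the SLC2A1 site 21.4 kb before the start and 2 of the 3 SLC6A19 sites. Their replicate 2 scores of 9, 11 and 6 stand for about 14.2, 17.3 and 9.45 tags, since a score unit is 1.58 tags in that library and 2.62 in replicate 1.

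**Figure D4:**
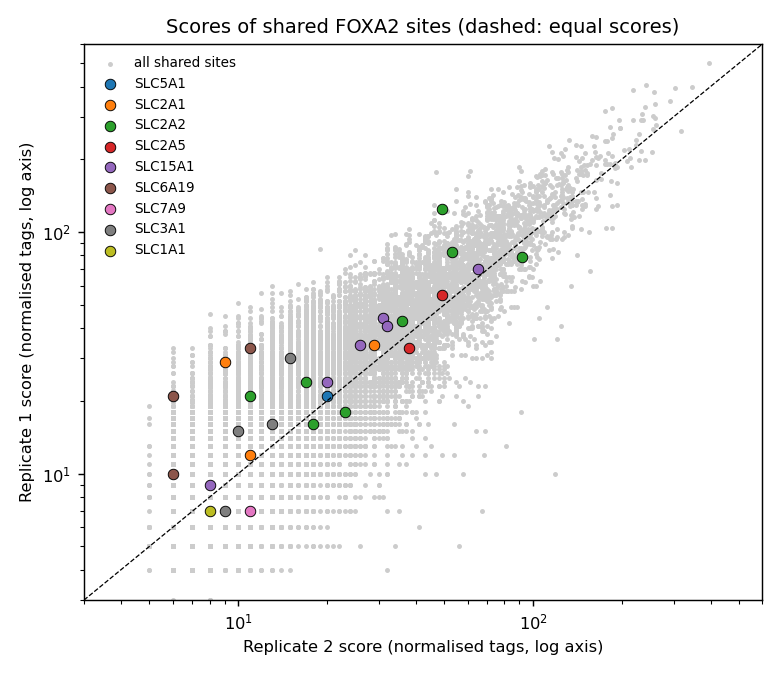
Score of each shared FOXA2 site in replicate 1 (vertical axis) against replicate 2 (horizontal axis), both in normalised tags on log axes, with all 24345 shared sites in grey and the 29 transporter sites coloured by gene. Of the transporter sites, 22 lie above the equal-score line and 7 below it, and the points farthest above it are an SLC2A1 site and 2 SLC6A19 sites.

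Close neighbours among the shared sites were limited to the windows of SLC2A2, SLC15A1 and SLC6A19. Of the 29, 14 had one within 10 kb, which is 48.3%, against 39.0% of all shared sites. They lay at SLC2A2 (7 sites), SLC15A1 (4) and SLC6A19 (3), and no site of the other windows had one. The share therefore describes these genes and not the transporters in general, and its difference from 39.0% was not tested. SLC2A2 and SLC15A1 also had the densest shared sites, with 6.11 and 3.55 per 100 kb. The other 15 sites, which include the remaining ones of SLC2A2 and SLC15A1, stood farther apart. At SLC2A1 they were at least 18.8 kb from the nearest other shared site, and at SLC2A5 at least 80.9 kb.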

How the data were processed

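FOXA2 ChIP-seq of Caco2 cells was available as 1 peak list for each of 2 replicates. The submitters' processing notes name Bowtie 1.0.0, HOMER 1.2 and hg19. Each replicate's peaks were called on their own against input, per the file headers, at 4-fold over input and over the local 10000 bp, a Poisson p-value of 0.0001 and a false discovery rate of 0.001, with at most 1 tag counted per position. The deposited score is a whole number, the authors' tag count per peak scaled to 10000000 tags. Its sum exceeded the tags in peaks named in the headers, once rescaled, by 0.45% in replicate 1 and 0.196% in replicate 2. A score unit stands for 2.62 and 1.58 tags, so low scores of replicate 2 rest on fewer tags. Peak width was fixed at 123 bp (replicate 1) or 151 bp (replicate 2) and says nothing of a site's shape. Peaks of 1 library are not replicates, and SDs are over the 2 replicates.

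Overlap of at least 1 bp was found with bedtools 2.31.1 under Python 3.11.15 (pandas 2.3.3, numpy 2.4.6, scipy 1.17.1). The counting was checked on simulated peaks built to overlap or not, which says nothing of missed or false overlaps in these data. Positions are printed from 1, on hg19 for peaks, as the replicate 1 peak for shared sites. Gene bounds come from the windows and are known to the nearest kb. Intervals are 95% Wilson intervals. No test between conditions was possible, since there is 1 condition. The members, lists and rules were chosen with earlier results of these data known. Each gene's strongest shared site, shared sites within 2 kb of its start and 2 further ones were to be named; other sites, and the 2 promoters printed, were chosen after their values were seen. Promoters are from RefSeq on GRCh38.p14. A genome and annotation of hg19 were not used here, so peak sequences, motifs in peaks and a list of other transporter genes were not analysed. Alternatives varied the overlap, the score minimum, the list length, the window and the replicates.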

Additional observations from a re-analysis of the deposited data

How the results depend on the processing

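Of the alternatives run, leaving out replicate 2 moved the count of sites most: each replicate alone gave 30 to 69 sites, or 2.20 to 5.05 per 100 kb, against 29 shared sites and 2.12. With windows of 20 kb on either side, shared sites numbered 19 and peaks 44 and 19 in replicates 1 and 2; over the gene alone, shared sites numbered 14 and peaks 29 and 14. The share of replicate 2 peaks that were shared was 100% in both. With a score of at least 10, replicate 1 had 32 peaks and 68.8% of them were shared; with lists of equal length it had 34 and 73.5%. Shared sites then numbered 22 and 25, within 1.5 times of 29. Without SLC2A2 and SLC15A1, an alternative chosen after seeing the data, the density was 1.41 per 100 kb, with 1.37 inside genes and 1.43 in flanks. Shared sites were found in 9 windows, in 7 with a score of at least 10, with equal lists or with 20 kb flanks, and in 6 over the gene alone. SLC7A9 and SLC1A1 had 0 at a score of at least 10. SLC2A2 had the most shared sites under every alternative run, with a tie with SLC15A1 at 15 peaks when replicate 1 stood alone. Of 58 alternative values for totals over the 9 windows, 43 stayed within the limit for no change, which is 1.5 times for a count. Motifs in peaks were not run. No paired analysis was possible because there is 1 group of FOXA2 libraries.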

Other observations

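The nearest shared sites outside the 50 kb flanks lay at varied distances. The nearest to SLC2A1 was at chr1:43483927-43484049, 8.99 kb past the window, and scored 57 in replicate 1 and 41 in replicate 2, higher than the 3 sites within it. For SLC1A1 the nearest was at chr9:4657905-4658027 beyond the window's upper end, with 55 and 58, against 7 and 8 at the site inside the gene. For SLC7A9 it was at chr19:33193052-33193174, with 77 and 105, against 7 and 11 within. This site was not close, at 77.9 kb past the window and 127.9 kb from the gene. Weak binding at SLC1A1 and SLC7A9 therefore describes their windows only, and which gene the sites farther out act on was not tested. Around SLC5A1 the nearest shared sites lay 346.2 kb below and 458.1 kb above the window.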
